A study of Mus musculus with 4 samples.

Results

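Oxidative phosphorylation is carried out in the mitochondrial inner membrane by 5 protein complexes, and the genes described here encode their subunits in the mouse nucleus. The members were all gene entries with symbols starting Nduf (with a, b, c, s or v and a number), the Sdh genes a to d, Uqcr, Cox4 to Cox8, or Atp5, without the Ndufaf assembly factors and entries marked as pseudogenes. The rule found 84 of 24421 entries. They fell into 73 standard subunits, 8 isoforms known mainly from restricted tissues, and 3 entries that are not counted as subunits here (*Cox7a2l*, *Atp5s* and *Atp5sl*). The standard subunits comprised 35 of complex I, 4 of complex II, 8 of complex III, 11 of complex IV and 15 of complex V.

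RNA-seq was performed on 4 cultures of wild-type R1 cells, a mouse embryonic stem cell (ESC) line, with 1 library per condition. The ESC library is labelled with medium holding 15% fetal bovine serum and 1000 U/mL leukemia inhibitory factor (LIF). By the methods, ESCs were collected after culture on gelatin with 1 µM PD0325901 (a MEK inhibitor), 3 µM CHIR99021 (a GSK3 inhibitor) and LIF, which the label of that library does not name. Epiblast-like cells (EpiLCs) were made from ESCs kept in the same inhibitors, then moved to ESC medium without LIF and to medium with 20% knockout serum replacement, 30 ng/ml FGF2 and 0.6 µM of a JAK inhibitor, and collected 72 h after induction. The DMSO and EED226 libraries came from ESCs in ESC medium with LIF, treated for 48 h with vehicle or with 10 µM EED226, an inhibitor of Polycomb repressive complex 2 (PRC2) that binds its EED subunit. All 4 cultures derive from ESCs maintained on mitotically inactivated mouse fibroblasts. Each condition is 1 culture of 1 line, so no difference below has a replicate check and no p-value is given.

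In the respiratory chain, complex I oxidises NADH and complex II oxidises succinate, and both pass electrons to ubiquinone. Complex III hands them to cytochrome c, complex IV passes them to oxygen, and complex V (ATP synthase) uses the proton gradient built by complexes I, III and IV to make ATP. Naive mouse ESCs are known to use both respiration and glycolysis, whereas primed pluripotent cells rely more on glycolysis. A few core subunits of complexes I, III, IV and V are encoded by mitochondrial DNA and were not analysed here, since the table lists 0 entries with the mitochondrial prefix.

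The libraries held 34440050 to 47622558 reads on genes. Levels are given as TPM, each gene's share of all reads per base of gene length scaled to a sum of 1000000 in each library, and can be compared between genes. The 8 naive markers summed to 2625 TPM in ESC, 314.8 in EpiLC, 1451 in DMSO and 1516 in EED226, and the 6 primed markers to 197.7, 672.2, 627.9 and 507.2 TPM. In DMSO, 7 of the naive markers lay between ESC and EpiLC and *Tbx3* below both. *Dnmt3b* made up most of the primed sum, at 134, 446 and 472 TPM in ESC, EpiLC and DMSO, while *Fgf5* had 0.17, 75.5 and 9.91 TPM and *Fgf8* 0.548, 6.11 and 1.08, so DMSO was not near EpiLC in each primed marker. *Otx2* had 55.6, 67.1 and 90.8 TPM in the same order. Pluripotency markers shared by both states were lower in EpiLC than in ESC, *Pou5f1* at 1109 against 2222 TPM and *Sox2* at 135 against 310. The 9 feeder fibroblast markers summed to 40.2, 11.7, 91.7 and 87.5 TPM, with *Lum* and *Postn* at 0 reads in EpiLC. In EpiLC over ESC 7 of the 9 were below a ratio of 1, *Pdgfrb* was at 1.17, and *Dcn* went from 6 to 102 reads, a ratio of 26.2. Their part in the values below was not tested. In bulk RNA, fewer cells of a type and less RNA per cell cannot be told apart.

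A ratio is the TPM of a library over that of another, and its 95% interval is exact (Clopper-Pearson) and covers counting error only. A member counted as higher or lower when its log2 ratio, taken after adding 0.1 TPM, reached 1.5-fold, among genes with at least 1 TPM in either library. Together the 84 members made up 3.17% of all TPM in ESC, 2.37% in EpiLC, 2.73% in DMSO and 2.61% in EED226. Their summed level was 31667 TPM in ESC, 23676 in EpiLC, 27262 in DMSO and 26062 in EED226, so the EpiLC sum was 0.748 of the ESC sum. Of the 72 standard subunits with reads, 49 were highest in ESC (68.1%, beside 23.3% of all genes tested and 38.3% of the 500 genes nearest to each in length) and 37 were lowest in EpiLC (51.4%, beside 27.2% and 37.4%). Another 15 were highest in EpiLC (20.8%, beside 44.2% and 34.8%).

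**Figure D1:**
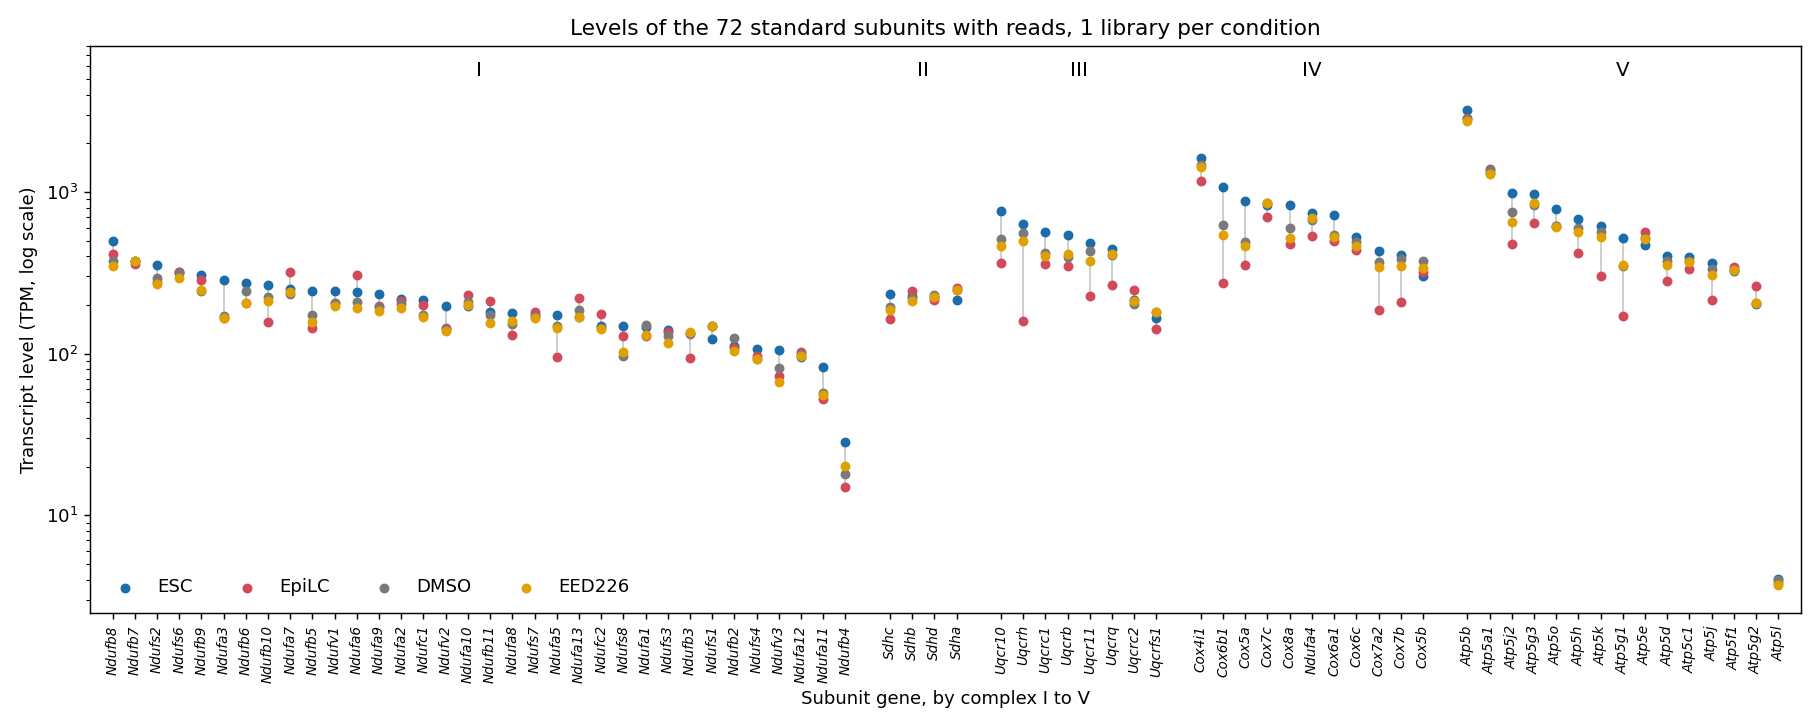
Transcript level (TPM, log axis) of each standard subunit with reads, ordered within complexes I to V by the ESC level; each point is 1 library and the grey line spans the 4. *Atp5b* lies between 2742 and 3235 TPM, *Atp5l* near 4, and the EpiLC points of *Uqcrh*, *Cox6b1* and *Atp5g1* lie far below the other 3.

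The members were short, with a median deposited gene length of 686.5 bases against 2790 for all genes tested in EpiLC over ESC, and ratios between these libraries varied with gene length. Each member was therefore also set beside the 500 measured genes of other kinds nearest to it in length, called like-length genes here. In EpiLC over ESC, 82 members were tested, of which 27 were lower and 4 higher (*Atp5s*, *Cox6a2*, *Cox7b2* and *Cox8c*, none of them a standard subunit). Over all 13535 genes tested, 19.2% were lower and 40.6% were higher. Among like-length genes, 32.0% were lower (27.9% of those of at least 20 TPM), close to the 32.9% of the members, so the share of lower members was not particular to them. The share of higher genes was 24.9% among like-length genes (17.1% at 20 TPM or more) and 4.88% among the members. Log2 ratios had a median of -0.26 over the members and of 0.33 over all genes, and the medians of like-length genes had a median of -0.09. After the like-length median was taken off each member, the members' median was -0.19, and 22 members were at least 1.5-fold below and 4 above their like-length genes. The same step over all genes tested gave 26.9% lower and 29.3% higher.

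**Figure D2:**
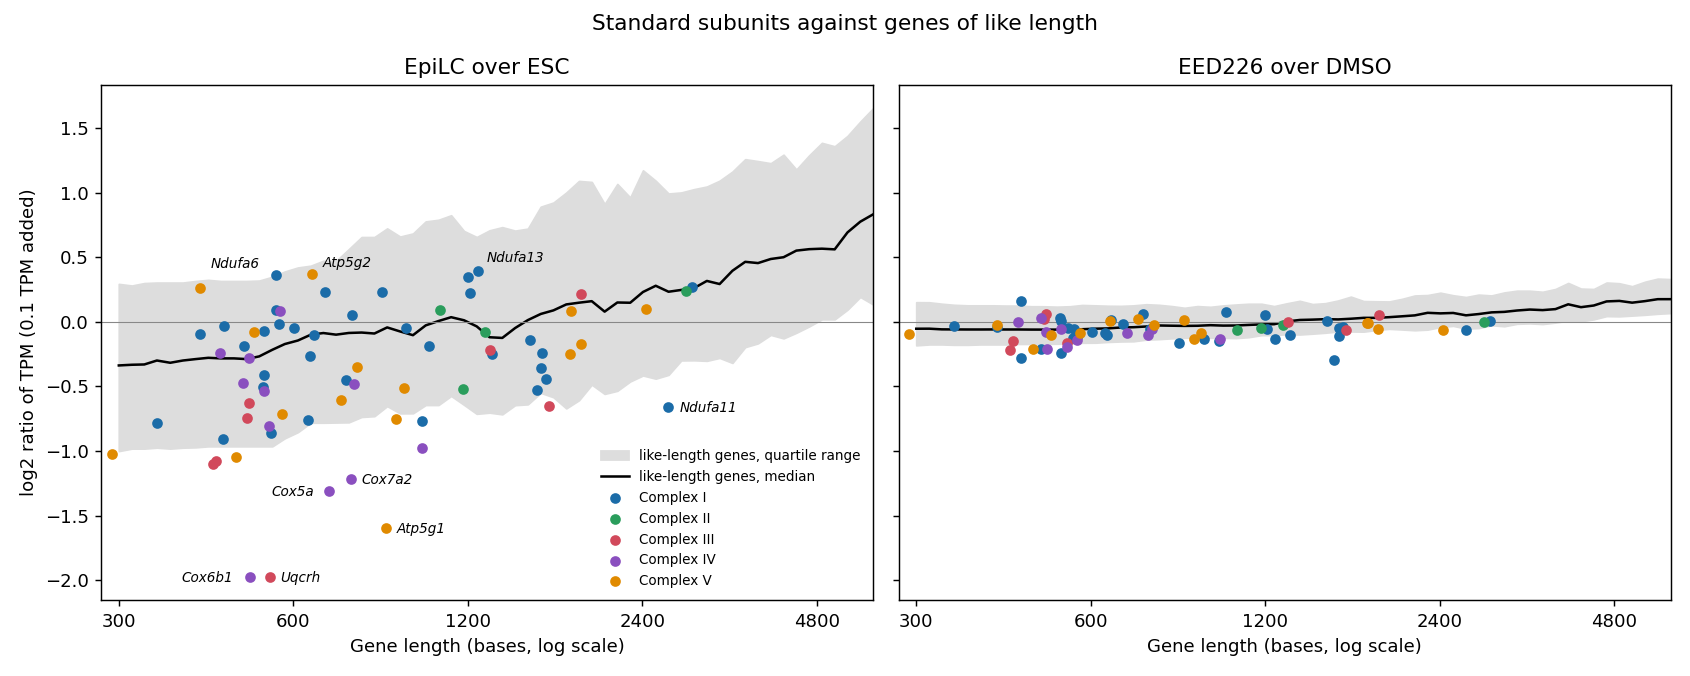
Log2 ratio of TPM (0.1 TPM added) against gene length (bases, log axis) for the standard subunits in EpiLC over ESC and EED226 over DMSO, coloured by complex, with the running median and quartiles of the 500 like-length genes. In EpiLC over ESC the subunits spread from -1.97 to 0.39, with *Uqcrh*, *Cox6b1*, *Atp5g1*, *Cox5a* and *Cox7a2* at the lower end, while in EED226 over DMSO they stay between -0.30 and 0.16.

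The complexes differed in how many subunits were lower in EpiLCs. In complex I, 6 of 34 tested standard subunits were lower, against 0 of 4 in complex II, 6 of 8 in complex III, 5 of 11 in complex IV and 6 of 15 in complex V. Of all genes tested, 19.2% were lower, and of the like-length genes of all members, 32.0%. After the like-length correction, 6, 0, 4, 4 and 4 subunits of complexes I to V were at least 1.5-fold below. The same step over all genes tested gave 26.9%. The ratio of summed levels was 0.897 for complex I, 0.968 for complex II, 0.555 for complex III, 0.634 for complex IV and 0.791 for complex V. The medians after the like-length correction were -0.08, 0.02, -0.55, -0.38 and -0.40 on the log2 scale in the same order. No test of the difference between complexes is possible with 1 library per condition.

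**Figure D3:**
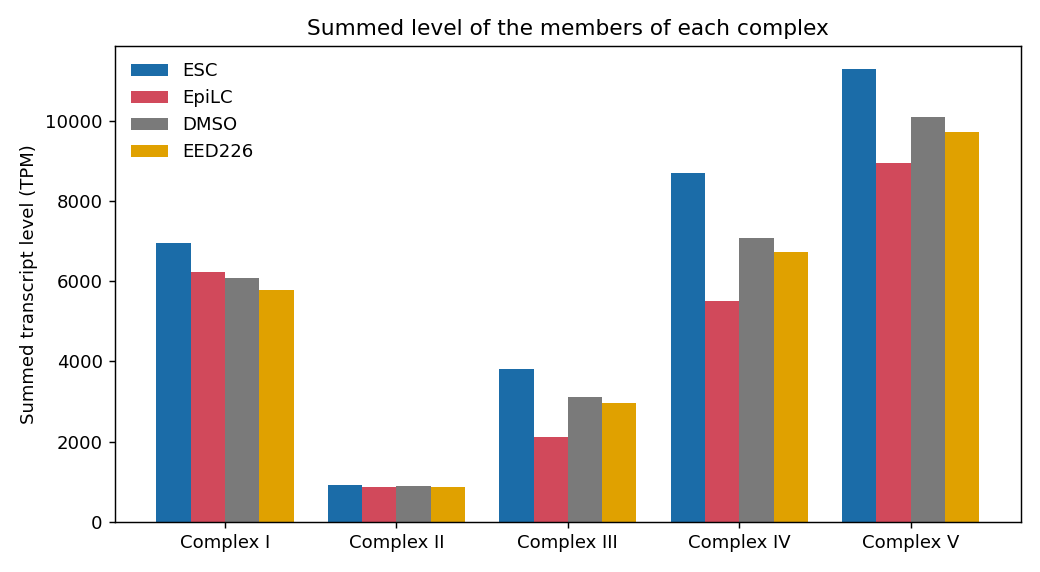
Summed TPM of all members of each complex in the 4 libraries (bars start at 0, 1 library each). The EpiLC bar is the lowest of the 4 for complexes III, IV and V, and the 4 bars of complex II lie within 872.9 to 902.5 TPM.

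The 5 promoters shown are those of the 4 standard subunits with the lowest ratio in EpiLC over ESC and of the subunit that stood highest above its like-length genes. Each is the 150 bases that end before both the RefSeq start site and the GENCODE gene, from RefSeq promoters of GRCm38.p6, with capitals marking a match to 1 of the motifs named below. They lie at chr4:116075072-116075221 on the minus strand (*Uqcrh*), chr7:30626152-30626301 on the minus strand (*Cox6b1*), chr11:96075671-96075820 on the minus strand (*Atp5g1*), chr9:57521082-57521231 on the plus strand (*Cox5a*) and chr15:82354323-82354472 on the minus strand (*Ndufa6*).
Uqcrh: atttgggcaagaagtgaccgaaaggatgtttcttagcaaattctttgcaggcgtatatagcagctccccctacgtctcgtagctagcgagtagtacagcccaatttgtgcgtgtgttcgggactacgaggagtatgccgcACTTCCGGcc
Cox6b1: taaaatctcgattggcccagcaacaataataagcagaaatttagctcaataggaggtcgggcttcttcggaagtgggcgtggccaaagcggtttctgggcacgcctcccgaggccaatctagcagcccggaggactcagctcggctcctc
Atp5g1: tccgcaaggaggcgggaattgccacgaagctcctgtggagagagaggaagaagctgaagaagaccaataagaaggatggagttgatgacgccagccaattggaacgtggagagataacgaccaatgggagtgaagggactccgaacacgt
Cox5a: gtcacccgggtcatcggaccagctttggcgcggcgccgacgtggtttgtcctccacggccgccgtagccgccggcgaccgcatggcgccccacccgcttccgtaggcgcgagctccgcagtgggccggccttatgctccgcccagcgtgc
Ndufa6: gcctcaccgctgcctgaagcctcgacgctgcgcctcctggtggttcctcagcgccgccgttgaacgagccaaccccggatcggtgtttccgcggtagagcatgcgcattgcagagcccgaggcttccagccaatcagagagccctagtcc

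Of these stretches, that of *Uqcrh* holds a match, to the ETS letters on the opposite strand, and the other 4 hold none. Outside its printed bases, *Ndufa6* had matches to the NRF1 and SP letters between 250 bases before and 50 after the start. The search covered both strands for 5 motifs named after factors known to act on mitochondrial or housekeeping promoters: NRF1 (its palindromic consensus), ETS (CCGGAAGT), YY1 (AAGATGGC), ERR (TCAAGGTCA) and SP (GGGGCGGGG). It was run in 2 windows, giving 10 motif and window pairs, and the motifs and windows were chosen with values already seen. RefSeq gave a promoter for 69 of the 84 members, beside 17492 protein-coding promoters in all. From 250 bases before to 50 after the start, NRF1 letters were in 23.2% of the members' promoters and 6.60% of all, YY1 in 14.5% and 3.22%, ETS in 7.25% and 5.29%, ERR in 2.90% and 0.33%, and SP in 17.4% and 15.5%. In the 250 bases before the start alone, the NRF1 shares were 17.4% and 5.30%, the ETS shares 4.35% and 3.84%, the ERR shares 1.45% and 0.31%, and the SP shares 14.5% and 14.1%. The YY1 shares there were 0% of the 69 and 1.51% of all, so the YY1 letters counted in the longer window reached past the start site.

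The members with a given motif did not share 1 ratio. With the longer window, the 15 tested members with NRF1 letters had log2 ratios in EpiLC over ESC with a median of -0.53 (range -1.03 to 0.37), against -0.24 for the 52 without. The 12 with SP letters had a median of 0.22 (range -0.78 to 2.22), against -0.44 for the 55 without. The 5 with ETS letters had a median of -0.81 (range -1.97 to -0.05), the 10 with YY1 letters one of -0.19 and the 2 with ERR letters one of -0.34. With the shorter window, the medians were -0.53 for 11 members with NRF1 letters (-0.24 for 56 without), -1.10 for 3 with ETS letters (-0.24 for 64 without) and 0.16 for 10 with SP letters (-0.41 for 57 without), and the 1 member with ERR letters had -0.61. These are descriptions of few promoters among 10 searches, and a match is not evidence that a factor binds there.

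Complex I has a peripheral arm, where NADH is oxidised, and a membrane arm that pumps protons. In ESC its standard subunits ranged up to *Ndufb8*, a membrane arm subunit, whose levels were 494, 411, 375 and 349 TPM in ESC, EpiLC, DMSO and EED226, the order used for all levels below. In EpiLC over ESC, 1 of 16 peripheral arm subunits and 5 of 18 membrane arm subunits were lower. Of the like-length genes of all members tested, 32.0% were lower, a share not computed for each arm. After the like-length correction the arms were close, with medians of -0.07 (peripheral) and -0.08 (membrane) on the log2 scale. By that measure 2 peripheral and 4 membrane arm subunits were at least 1.5-fold below. The 6 subunits lower before the correction were *Ndufa3*, *Ndufa5*, *Ndufa11*, *Ndufb4*, *Ndufb5* and *Ndufb10*. *Ndufa5*, which belongs to the peripheral arm, had 173, 95.2, 148 and 143 TPM, a ratio of 0.551 (interval 0.507 to 0.597). *Ndufb5*, an accessory subunit of the membrane arm, had 245, 143, 172 and 156 TPM, and its ratio of 0.586 (interval 0.558 to 0.616) was among the lowest of the complex. The ESC library was the highest of the 4 for both genes. *Ndufb10*, also of the membrane arm, had 265, 156, 225 and 212 TPM and a ratio of 0.59 (interval 0.556 to 0.626). *Ndufa3* had 284, 165, 171 and 167 TPM, with EpiLC, DMSO and EED226 close together and ESC apart. Its ratio was 0.581 (interval 0.537 to 0.628) in EpiLC over ESC and 0.601 (interval 0.558 to 0.646) in DMSO over ESC. *Ndufb4* had 28.3, 15, 18 and 20.2 TPM and a ratio of 0.531 (interval 0.421 to 0.666), but 33.4% of its 100-base windows are found in another annotated gene, so its level is uncertain.

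*Ndufa11*, a membrane arm subunit, stood lowest against like-length genes within complex I, by -0.90 on the log2 scale. That value rests on its deposited gene length of 2661 bases, where the GENCODE transcript used for the window search has 918. Its levels were 83, 52.5, 57.4 and 55.1 TPM, and its ratio in EpiLC over ESC was 0.633 (interval 0.602 to 0.666), with the 3 libraries other than ESC close together. At the other end, *Ndufa6*, a small accessory subunit of the peripheral arm, had 239, 308, 207 and 190.3 TPM. EpiLC was the highest of the 4, at a ratio of 1.29 (interval 1.22 to 1.36), which is 0.58 above like-length genes on the log2 scale. *Ndufs5* was listed at 0 reads in all 4 libraries. It encodes a complex I subunit of all tissues, and 27.0% of its windows are shared with the processed pseudogene *BC002163*, which had 1035, 476, 591 and 649 reads. No level of *Ndufs5* can be read from the table, and whether reads of the pseudogene come from *Ndufs5* was not tested. Over all members, the 32 tested ones under 600 bases had log2 ratios with a median of -0.49. For the 22 of 1200 bases or more it was -0.15. After the like-length correction these medians became -0.22 and -0.17.

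Complex II, succinate dehydrogenase, is shared with the citric acid cycle and has only nuclear-encoded subunits. Its 4 genes had similar levels in ESC, 215.0 to 235.0 TPM. *Sdhc*, a membrane anchor subunit, had 235, 163, 193 and 187 TPM and the lowest ratio of the complex, 0.696 (interval 0.666 to 0.727). *Sdha*, the flavoprotein that oxidises succinate, had 215, 254, 249 and 249 TPM, with ESC the lowest of the 4. *Sdhb*, the iron-sulfur subunit, had 228, 242, 221 and 212 TPM, and EpiLC was the highest. No member of complex II reached 1.5-fold in any comparison.

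Complex III, the cytochrome bc1 complex, had the lowest EpiLC sum of its members relative to ESC. *Cyc1*, which encodes cytochrome c1, lies outside the symbol rule and is not in that sum or in the counts for complex III. It had 513, 481, 418 and 416 TPM and a ratio of 0.936 in EpiLC over ESC. *Uqcrh*, the hinge subunit that contacts cytochrome c1 (gene at chr4:116066965-116075071, minus strand, GRCm38), had 629.9, 160.2, 558 and 499.9 TPM. ESC, DMSO and EED226 lay within 499.9 to 629.9 TPM and EpiLC stood apart, at a ratio of 0.254 (interval 0.24 to 0.269) in EpiLC over ESC. The DMSO over ESC ratio of the same gene was 0.887 (interval 0.856 to 0.918). *Uqcr10*, a small subunit with the highest ESC level of the complex, had 764, 363, 511 and 461 TPM and a ratio of 0.475 (interval 0.453 to 0.497). *Uqcr11*, another small subunit, had 484, 226, 433 and 372 TPM and a ratio of 0.467 (interval 0.441 to 0.495). Both were lowest in EpiLC. *Uqcrc1*, a core protein facing the matrix, had 562, 358, 421 and 402 TPM and a ratio of 0.636 (interval 0.62 to 0.652). The other core protein gene, *Uqcrc2*, had 214, 248, 203 and 211 TPM and was highest in EpiLC, at a ratio of 1.16 (interval 1.13 to 1.2). The 2 core proteins, which are present in equal numbers in the complex, thus lay on opposite sides of a ratio of 1. *Uqcrb* and *Uqcrq*, both small membrane-bound subunits, had ratios of 0.649 (interval 0.62 to 0.679) and 0.598 (interval 0.568 to 0.63). *Uqcrfs1*, the Rieske iron-sulfur protein, had 165, 142, 181 and 181 TPM and the lowest ESC level of the complex.

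Complex IV, cytochrome c oxidase, has several subunits encoded by pairs of genes, with an isoform used in most tissues and another in restricted ones. *Cox4i1*, the highest of its standard subunits, had 1618, 1160.4, 1474 and 1422 TPM, and *Cox5b*, the lowest in ESC, had 303, 321, 375 and 341 TPM. *Cox6b1*, which lies on the intermembrane side of the complex (gene at chr7:30616861-30626151, minus strand, GRCm38), had 1067, 272, 626 and 541 TPM. Its ratio was 0.255 (interval 0.243 to 0.267) in EpiLC over ESC and 0.586 (interval 0.568 to 0.605) in DMSO over ESC. All 3 other libraries lay below ESC, and EpiLC was the lowest. *Cox5a*, a matrix-side subunit, had 876, 354, 487 and 460.4 TPM, with ratios of 0.404 (interval 0.389 to 0.419) and 0.556 (interval 0.54 to 0.573) in the same comparisons. *Cox7a2* had 429.5, 185, 367 and 342 TPM, *Cox7b* had 409, 208, 382 and 348 TPM and *Cox8a* had 831, 475, 598 and 523 TPM. These small membrane subunits had ratios of 0.431, 0.508 and 0.572 in EpiLC over ESC, while DMSO over ESC gave 0.855, 0.934 and 0.72. *Ndufa4*, first described with complex I and now read as a complex IV subunit, had 739.9, 533, 674 and 687 TPM, and *Cox6a1* had 722, 499, 545 and 526 TPM.

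The restricted isoforms were mostly low beside their partners. *Cox6b2*, known from testis, had 119.9, 139.7, 51.6 and 60.2 TPM. Its share of the summed TPM of *Cox6b1* and *Cox6b2* was 10.1% in ESC (interval 9.64% to 10.6%), 33.96% in EpiLC (32.4% to 35.5%), 7.62% in DMSO (7.02% to 8.26%) and 10.0% in EED226 (9.33% to 10.7%). The larger EpiLC share accompanied a *Cox6b2* level near that of ESC and a *Cox6b1* level of 271.8 TPM. *Cox7a1*, the heart and muscle isoform (gene at chr7:30184144-30186078, plus strand, GRCm38), had 77.5, 19.7, 19.5 and 20.5 TPM and ratios of 0.254 in EpiLC over ESC and 0.252 in DMSO over ESC. It made up 15.3% of the summed *Cox7a1* and *Cox7a2* in ESC, 9.61% in EpiLC, 5.05% in DMSO and 5.66% in EED226. ESC was the highest for *Cox7a1*, and the other 3 libraries lay between 19.5 and 20.5 TPM. *Cox7a2l*, which is related to these isoforms and known for its part in joining complexes III and IV, had 123, 184, 116 and 123 TPM.

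*Cox7b2*, known from testis, had 7.12, 15.6, 2.2 and 1.53 TPM and a ratio of 2.19 (interval 1.66 to 2.89) in EpiLC over ESC. *Ndufa4l2*, a relative of *Ndufa4* known to be induced by low oxygen, had 17.7, 6.93, 6.71 and 6.58 TPM, with ESC above the other 3, at ratios of 0.392 in EpiLC over ESC and 0.38 in DMSO over ESC. *Cox4i2*, the lung isoform of *Cox4i1*, had 3.39, 1.44, 4.22 and 4.23 TPM, a ratio of 0.425 (interval 0.228 to 0.75) in EpiLC over ESC and at most 0.30% of the pair in any library. *Cox6a2*, the heart and muscle isoform of *Cox6a1*, had 0, 18, 0 and 1 reads, and its EpiLC level was 9.25 times the ESC floor of 3 reads per library, with a counting interval for the ratio that began at 6.78. *Cox8b*, also of heart and muscle, had 0, 0, 1 and 1 reads. *Cox8c*, known from testis, had 13, 16, 3 and 8 reads, and its interval in EpiLC over ESC, 0.856 to 4.29, included 1. None of these 3 reached 3 TPM.

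**Figure D4:**
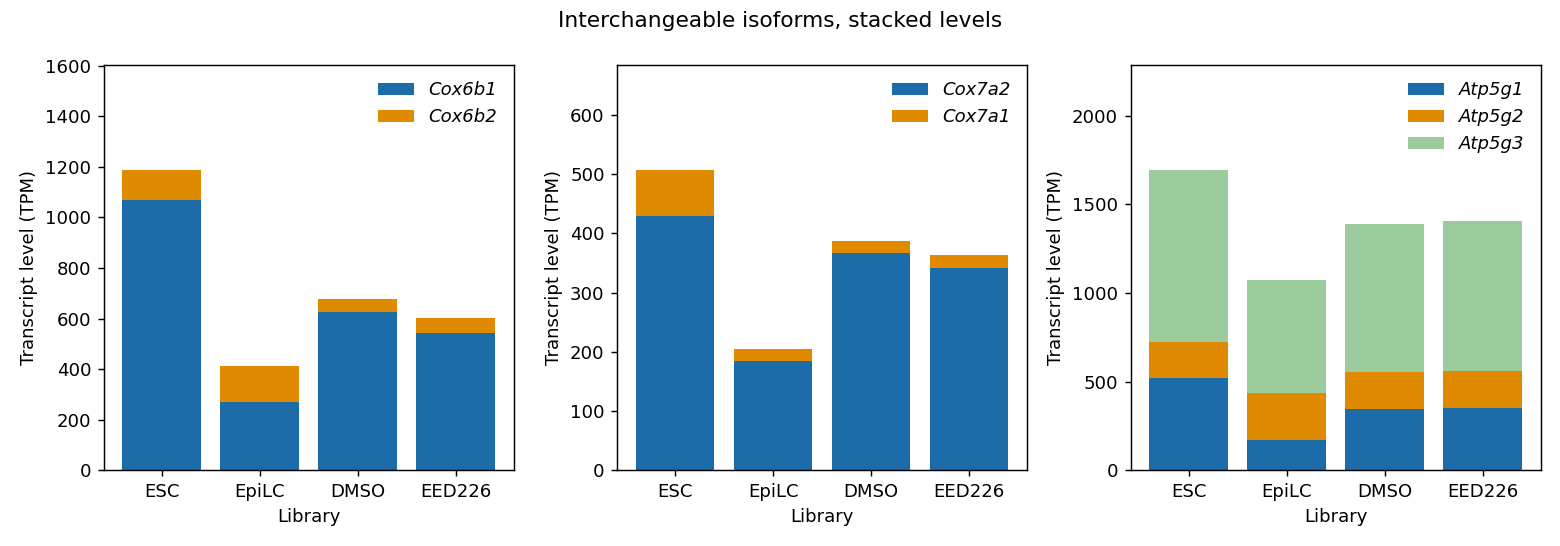
Stacked TPM of interchangeable isoforms in the 4 libraries (bars start at 0, 1 library each): *Cox6b1* and *Cox6b2*, *Cox7a2* and *Cox7a1*, and the 3 genes of the ATP synthase c subunit. *Cox6b2* makes up 33.96% of its bar in EpiLC and 7.62% to 10.1% in the others, and *Atp5g1* is the thinnest segment of the c subunit bar in EpiLC.

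Complex V consists of an F1 head in the matrix, counted here together with its central stalk, a peripheral stalk and a membrane part that holds the ring of c subunits. In EpiLC over ESC, 0 of 5 F1 head subunits, 2 of 4 peripheral stalk subunits and 4 of 6 membrane part subunits were lower. The 32.0% of like-length genes that were lower is a share over all members tested and was not computed for each part. After the like-length correction, 0, 1 and 3 were at least 1.5-fold below, with medians of -0.34, -0.40 and -0.60 on the log2 scale. Of the 5 head subunits, 4 were below their like-length genes. *Atp5b*, the catalytic beta subunit of the head, was the highest member of all, at 3235, 2881, 2840.4 and 2742 TPM. *Atp5e*, the epsilon subunit of the central stalk, had 473, 568, 521 and 513 TPM and was highest in EpiLC. In the peripheral stalk, *Atp5h* and *Atp5j* had 684, 418, 601 and 565 TPM and 361, 214, 334 and 305 TPM. Their ratios were 0.611 (interval 0.588 to 0.635) and 0.593 (interval 0.569 to 0.619) in EpiLC over ESC. In the membrane part, *Atp5j2* had 981, 474, 751 and 649.8 TPM and *Atp5k* had 614, 301, 564 and 529 TPM, with ratios of 0.483 (interval 0.465 to 0.502) and 0.491 (interval 0.461 to 0.522). Both were lowest in EpiLC. *Atp5l*, another membrane subunit, was listed at 4.06, 3.83, 3.98 and 3.71 TPM, and 61.3% of its windows are found in another annotated gene, so its level is uncertain.

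The c subunit is made from 3 genes that encode the same mature protein behind different import sequences. Their coding ends, from GENCODE transcripts, are shown because the 3 messages give the same residues but differed between libraries by different amounts; capitals mark the 63 of 234 positions at which the 3 differ. Each stretch encodes the same 78 residues and ends before the stop codon. The genes lie on chromosomes 11, 15 and 2.
Atp5g1: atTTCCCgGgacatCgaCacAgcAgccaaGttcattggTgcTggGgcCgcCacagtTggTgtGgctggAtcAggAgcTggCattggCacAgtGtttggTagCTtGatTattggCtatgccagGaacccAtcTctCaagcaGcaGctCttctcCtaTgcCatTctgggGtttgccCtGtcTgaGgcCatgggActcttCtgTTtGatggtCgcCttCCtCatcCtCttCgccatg
Atp5g2: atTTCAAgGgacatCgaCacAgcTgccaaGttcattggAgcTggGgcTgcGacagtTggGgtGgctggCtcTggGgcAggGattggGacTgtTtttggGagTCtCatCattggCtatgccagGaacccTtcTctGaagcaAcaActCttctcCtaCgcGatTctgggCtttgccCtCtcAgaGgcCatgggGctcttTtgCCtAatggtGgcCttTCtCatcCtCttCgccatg
Atp5g3: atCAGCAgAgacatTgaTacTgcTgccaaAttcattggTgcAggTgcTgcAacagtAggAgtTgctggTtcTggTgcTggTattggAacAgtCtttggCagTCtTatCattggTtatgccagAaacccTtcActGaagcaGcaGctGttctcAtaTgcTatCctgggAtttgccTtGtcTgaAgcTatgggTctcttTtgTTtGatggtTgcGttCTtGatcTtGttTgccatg

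Over these 234 bases, *Atp5g1* and *Atp5g2* were 84.6% identical, *Atp5g1* and *Atp5g3* 78.6%, and *Atp5g2* and *Atp5g3* 77.4%. *Atp5g1* had 520.2, 172, 347 and 352 TPM, a ratio of 0.331 (interval 0.316 to 0.346) in EpiLC over ESC and of 0.668 (interval 0.646 to 0.69) in DMSO over ESC. *Atp5g2* had 202, 262, 206 and 206 TPM, highest in EpiLC, at a ratio of 1.3 (interval 1.23 to 1.37). *Atp5g3*, the highest of the 3, had 972, 639, 835 and 849 TPM and a ratio of 0.657 (interval 0.639 to 0.675). *Atp5g1* thus made up 30.7% of the summed c subunit level in ESC and 16.0% in EpiLC, and *Atp5g2* 11.9% and 24.4%. The sum itself was 1695 TPM in ESC, 1073 in EpiLC, 1388 in DMSO and 1406 in EED226. Of the windows of *Atp5g1* and *Atp5g2*, 48.1% and 41.4% are found in other annotated genes, against 0% for *Atp5g3*.

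*Atp5s*, also called distal membrane arm assembly component 2-like, is not a subunit. It had 3.81, 18.1, 5.51 and 6.41 TPM, with EpiLC apart from the other 3 at a ratio of 4.75 (interval 3.9 to 5.82). Its relative *Atp5sl* had 52.5, 26.9, 42 and 40.9 TPM and a ratio of 0.513 (interval 0.477 to 0.552), in the other direction.

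For 24 of the 84 members, at least 10% of the transcript was shared with or overlapped by another annotated gene, so reads may be split between the genes and these levels are uncertain. In 15 of them the shared windows reached that limit, among them *Atp5o* (77.0% over 3 genes, of which *Donson* alone holds 43.6%), *Atp5l* (61.3%), *Atp5g1* (48.1%), *Atp5g2* (41.4%), *Atp5h* (32.7%), *Uqcrb* (15.8%), *Ndufb2* (12.9%) and *Cox5b* (11.8%). In 9 the exons of a gene on the opposite strand did, and reads of the partners cannot be told apart, because no source used here says whether counting used strand. Such exons cover 39.0% of *Ndufb6* (*Smim27*), 30.0% of *Ndufa13* (*Tssk6*), 19.7% of *Uqcrc2* (*Pdzd9*), 12.9% of *Ndufb11* (*Rbm10*), 12.8% of *Cox5a* (*Gm26631*), 12.7% of *Atp5j* (*Gabpa*), 12.3% of *Ndufb5* (*Mrpl47*), 11.5% of *Ndufa2* (*Tmco6*) and 10.3% of *Cox6a2* (*Itgad*). *Uqcrh*, *Cox6b1*, *Cox6b2*, *Cox7a1* and *Atp5s* had 0% by each measure.

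EED226 was compared with DMSO to see what PRC2 inhibition does in ESCs. None of the 80 members tested was 1.5-fold higher or lower, where 5.26% of the 12763 genes tested were higher and 1.02% lower. Among like-length genes the shares were 5.42% and 3.17%, and among those of at least 20 TPM they were 0.34% and 0.36%, so few genes at the members' levels passed the limit. The median log2 ratio was -0.05 for the members, 0.08 for all genes and -0.04 for the medians of like-length genes, and the summed level of the members was 0.956 of that in DMSO. By complex, the ratio of sums was 0.952, 0.978, 0.950, 0.951 and 0.962 from I to V. The 5 lowest members were *Cox7b2*, *Ndufv3*, *Ndufb2*, *Ndufb6* and *Uqcr11*. *Cox7b2* had 21 reads in DMSO and 17 in EED226, and its interval, 0.345 to 1.38, included 1. *Ndufv3*, a peripheral arm subunit of complex I, had 81.7 TPM in DMSO and 66.5 in EED226, a ratio of 0.813 (interval 0.767 to 0.863). *Ndufb2*, *Ndufb6* and *Uqcr11* had ratios of 0.823, 0.848 and 0.859. The 5 highest were *Cox6b2*, *Atp5s*, *Ndufb4*, *Cox7a2l* and *Ndufs8*, with ratios of 1.17, 1.16, 1.12, 1.07 and 1.05. The interval of *Cox6b2*, 1.04 to 1.30, lay above 1, and those of *Atp5s* and *Ndufb4* included it.

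The DMSO library shares its sample with that comparison, and the ESC library is shared with the EpiLC comparison, so the ratios of DMSO over ESC are given side by side only. These cultures also differed in medium by the methods, so vehicle and medium cannot be told apart. Of 81 members tested, 10 were lower and 0 higher, beside 15.1% and 28.2% of 12945 genes and 24.8% and 16.7% of like-length genes. Among like-length genes of at least 20 TPM the shares were 14.5% and 9.92%, near the members' 12.3% lower. The 5 standard subunits among the 10 were *Ndufa3*, *Ndufb4*, *Ndufs8*, *Cox5a* and *Cox6b1*, and the 5 restricted isoforms were *Cox6b2*, *Cox7a1*, *Cox7b2*, *Cox8c* and *Ndufa4l2*. *Cox8c* had 13 reads in ESC and 3 in DMSO, and its interval, 0.056 to 1.12, included 1. *Ndufs8*, an iron-sulfur subunit of complex I, had 147, 129, 97.1 and 102 TPM. Its ratio was 0.658 (interval 0.622 to 0.697) in DMSO over ESC and 0.877 (interval 0.83 to 0.926) in EpiLC over ESC. Of the 72 standard subunits with reads, 47 had a DMSO level between those of ESC and EpiLC (65.3%, beside 51.9% of all genes tested in EpiLC over ESC and 46.4% of like-length genes).

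Other mitochondrial genes were read from lists in the same way. The shares to set beside the counts of every list in EpiLC over ESC are those of all genes tested, 40.6% higher and 19.2% lower, which are not matched for gene length. Of 77 mitochondrial ribosomal protein genes, which serve translation of the mitochondrial subunits, 28 were lower and 1 higher in EpiLC over ESC, and the log2 ratios had a median of -0.43, both before and after the like-length median was taken off each gene. After that step, 29 were at least 1.5-fold below and 2 above, beside 26.9% and 29.3% of all genes tested. Their lowest were *Mrps12* (186 TPM in ESC and 54.7 in EpiLC) and *Mrpl17* (46.4 and 19.5), and their highest *Mrpl23* (8.69 and 20.7) and *Mrpl38* (97.9 and 141). Of 45 tested assembly factors, 11 were higher (24.4%) and 9 lower (20.0%, near the share of all genes), with a median of 0.04 (0.01 after the like-length correction). *Pet100* and *Cox19*, both needed to build complex IV, had ratios of 0.253 and 0.384, and *Lyrm7* and *Ttc19*, which act on complex III, had 4.36 and 3.08. The ratio of *Lyrm7* rests on 23 reads in ESC and 65 in EpiLC, at 0.448 and 1.95 TPM.

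Of 17 electron carrier genes, 6 were higher (35.3%, beside 40.6% of all genes) and 1 lower, with a median of 0.56 (0.25 after the like-length correction). *Coq2* and *Coq7*, enzymes of ubiquinone synthesis, had ratios of 4.15 and 1.97, *Coq6* had 0.614, and *Cycs*, cytochrome c, had 0.9. Of 18 citric acid cycle genes, 2 were higher (*Suclg2* and *Dlst*, at 1.76 and 1.71) and 2 lower (*Idh2* and *Sucla2*, at 0.457 and 0.631), with a median of 0.09 (-0.16 after the correction). Of 26 import and inner membrane genes, 6 were higher and 9 lower, with a median of -0.32 (-0.35 after it). The adenine nucleotide carriers lay apart: *Slc25a4* had 256, 536, 520.5 and 664 TPM, and *Slc25a5* had 1348, 755, 1329 and 1299 TPM. *Phb*, prohibitin, had the lowest ratio of that list, 0.321, and *Chchd6*, of the cristae organising system, had 1.9. Of 5 further genes tied to the complexes that the symbol rule misses, 2 were lower, *2010107E04Rik* at 0.575 and *Usmg5* at 0.652. *Cyc1* had 0.936 and *Ndufab1* had 1.21. *Atpif1*, which is not counted as a subunit here, had 1.09.

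Of 24 tested biogenesis regulators, 7 were higher (29.2%) and 5 lower (20.8%, near the share of all genes), with a median of 0.13. After the like-length correction it was -0.30, so the medians of the citric acid cycle genes and the regulators turned from above 0 to below it. *Esrrb*, a naive pluripotency factor of the estrogen-related receptor family, had 354, 36.7, 217 and 235 TPM. *Stat3*, which LIF activates, had 55.8, 15.3, 63.2 and 69.3 TPM, and *Epas1*, a hypoxia-inducible factor, had 0.147 as its ratio in EpiLC over ESC. *Lin28b* had 4, 31.1, 33.6 and 41.2 TPM and *Lin28a* had 239.9, 391, 380.0 and 378 TPM; both encode RNA-binding proteins that block let-7 maturation, and ESC was the lowest library for each. *Esrra*, a known activator of respiratory chain genes, had 12.9, 33.5, 12.8 and 16.3 TPM. *Ppargc1b*, a coactivator of the estrogen-related receptors, had 1.91, 4, 2.64 and 3.79 TPM. *Tfam*, which packages mitochondrial DNA, had 49.5, 48.9, 64.8 and 64 TPM, close together in ESC and EpiLC.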

How the data were processed

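RNA from 4 R1 cultures was sequenced as 100 bp single reads from TruSeq Stranded mRNA libraries. Per the labels' processing notes, featureCounts 1.6.2, STAR 2.6.0a, Bowtie2 2.2.4 and bcl2fastq 2.20 were used, with mm10; strand and multi-mapping settings and the annotation are not given in the sources used here. The authors deposited a count of reads and a TPM value per gene, with gene length. The deposited TPM was recomputed from counts and length, with a largest difference of 1.6e-11. Of 24421 entries, 2 that share a symbol were left out.

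The depth was 47622558 reads in ESC, 34440050 in EpiLC, 38863803 in DMSO and 46789589 in EED226. A count model needs replicates, so none was run, and intervals and the floor of 3 reads cover counting error only. Ratios were computed in Python 3.11.15 with numpy 2.4.6, pandas 2.3.3 and scipy 1.17.1, drawn with matplotlib 3.10.9, and tested on simulated data. The limit was 1.5-fold, with 2-fold and 1.25-fold as alternatives, at 1 TPM or more in either library; like-length genes were the nearest 500 in log length. Shared sequence was the share of a member's 100-base windows found in transcripts of other GENCODE M21 genes (GRCm38, which mm10 names), and 24 members had 10% or more shared or overlapping.

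The members and lists were chosen with earlier results of these data known. Genes named are, in each complex, the highest and lowest standard subunit by ESC level and by like-length-corrected EpiLC ratio; members 1.5-fold apart; the 5 highest and lowest with EED226; isoform groups; and, of other lists, the 2 top and 2 bottom ratios of EpiLC over ESC, with 6 regulators (*Esrrb*, *Stat3*, *Lin28a*, *Lin28b*, *Ppargc1b* and *Tfam*). The complex I arms, complex V parts, length limits, motifs, windows, printed sequences and the left-out copies were chosen after values were seen. The motif search covered 5 motifs in 2 windows of RefSeq promoters (GRCm38.p6).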

Additional observations from a re-analysis of the deposited data

How the results depend on the processing

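In EpiLC over ESC, 27 members were lower and 4 higher. The lower count was 12 at a 2-fold limit (11.6% of all genes) and 41 after centring on the median gene (28.4%), which moved all ratios by 0.33 on the log2 scale. The higher count was 9 at the smaller alternative limit (50.3%), 2 with a 10 TPM minimum and 0 over standard subunits only. In EED226 over DMSO, where 0 members were apart, 1 was lower at the smaller limit and 2 were higher with no minimum level. In DMSO over ESC, where 10 were lower and 0 higher, the lower count was 5 at 2-fold (9.02% of all genes), 24 at the smaller limit (23%), 18 after centring (20%) and 5 over standard subunits only, and the higher count was 1 at the smaller limit, 1 with no minimum and 1 with the length trend removed. The cause of these moves is the setting itself, which changes the limit, the centre or the members counted. The members' median in EpiLC over ESC went from -0.26 to -0.58 after centring, to -0.19 and -0.16 with the length trend removed against all genes or those of at least 20 TPM, and to -0.35 without the members that share or overlap sequence, an alternative chosen after seeing the data. No named member that was apart changed direction under the 4 alternatives that alter a single ratio (1 TPM added, centring and both length corrections). No paired analysis was possible because each condition has 1 library, and no replicate could be left out.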
